A study of Mus musculus with 25 samples.

Results

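The difference between late and early culture of cEND cells was described from 6 of the 25 samples of the series, the 3 libraries labelled passage 18 and the 3 labelled passage 12, chosen by the passage number in their labels. cEND is an immortalised endothelial line from mouse brain cortex. At each passage, 1 library came from cells with the vehicle DMSO, 1 from cells with 0.5 µM WZB117 and 1 from cells with 10 µM WZB117, which blocks glucose uptake through the transporter Glut1. A further 3 libraries of passage 14, with the same treatments, were used only to place passage 14 beside the other passages. The line has no genetic change named in the labels. The time of treatment was not given in the sources used here.

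Brain endothelial cells line the capillaries of the blood-brain barrier. They are joined by claudin and cadherin junctions and carry glucose, amino acids and iron through specific transporters. In culture, endothelial cells divide, lose part of their barrier programme and can respond to cytokines by making adhesion molecules and chemokines. Each passage is a round of detaching and reseeding, so cells of a higher passage have grown in culture for longer.

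Passage and treatment were crossed, so passage 18 was set against passage 12 within each treatment. Nothing in the labels says that libraries of 1 passage came from separate cultures, and each passage was 1 point in the history of 1 line. There was no more than 1 library per treatment at a passage, so no spread within a treatment could be measured. The p-values set the passage difference only against the spread between the treatments, with a variance drawn in part from other genes. A difference of passage cannot be told apart from a difference of culture, day or sequencing run. Total counts were 27.3, 28.8 and 40.0 M (1 M is 1000000 counts) at passage 12 and 40.0, 35.3 and 37.8 M at passage 18, in the order DMSO, 0.5 µM and 10 µM. Structural RNA features took 14.2 to 15.3 percent of the counts at passage 12 and 16.2 to 16.8 percent at passage 18. The 10 endothelial markers were all detected and summed to 5357 to 5646 CPM (counts scaled to a library total of 1000000) at passage 12 and 6847 to 7220 CPM at passage 18. Several defining genes of the blood-brain barrier were near absent: of 31 barrier genes, 9 stayed under 1 CPM in all 9 cEND libraries, Mfsd2a, Slco1a4 and Foxq1 among them, and Slco1c1 was at 0.

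Of 15152 tested genes, 5293 (34.9 percent) passed an adjusted p of 0.05 in edgeR's quasi-likelihood test with the treatment as a block. Of these, 2450 genes (16.2 percent of those tested) were higher at passage 18 and 2843 (18.8 percent) were lower. Most differences were small, the median size among called genes being 0.385 on the log2 scale. A change of at least 2-fold was seen in 338 of the higher and 424 of the lower genes. The sign was the same within all 3 treatments for 98.4 percent of called genes and for 57.2 percent of all tested genes. The libraries of the 2 passages did not overlap for 78.2 percent of called genes and for 36.0 percent of all tested genes. The call rests on agreement between these same libraries, so higher shares among called genes follow in part from the calling. The passage 14 mean lay between the means of passages 12 and 18 for 58.7 percent of all called genes and for 76.8 percent of those with at least a 2-fold change, against 38.7 percent of all tested genes. When the treatment was left out of the model, 2464 genes were called.

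Among genes with a mean of at least 10 CPM and no overlap of the passages, the largest rise was that of Ednrb, which encodes the type B endothelin receptor and lies on the minus strand of chromosome 14 (GRCm38, chr14:103814625-103844402). Ednrb stood at 10.7, 13.2 and 32.3 CPM at passage 12 and at 262, 305 and 572 CPM at passage 18, in the order DMSO, 0.5 µM and 10 µM WZB117. The 10 µM library was the highest of its passage at both times. At passage 14 Ednrb stood between, at 63.1, 65.7 and 115 CPM. The log2 fold change was 4.42 ± 0.08 (SE, n = 3 libraries per passage; adjusted p = 3.1e-36, edgeR), or 21.4-fold.

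Several of the largest rises were in genes of secreted and matrix proteins. Igfbp5, a secreted binding protein of insulin-like growth factors, rose from 15.8, 15.9 and 17.9 CPM to 178, 179 and 207 CPM, with 110, 92.6 and 70.3 CPM at passage 14 (log2 fold change 3.51 ± 0.08 SE, adjusted p = 5.1e-41, edgeR). Bgn, the small proteoglycan biglycan, rose from 5.39, 5.80 and 7.04 CPM to 81.5, 75.6 and 73.3 CPM (3.66 ± 0.09). For both genes passage 14 lay between the other passages, whose libraries did not overlap, as the rule that chose these genes required. Fbln5, which helps assemble elastic fibres, rose by 3.37, and less at 10 µM (2.92) than in DMSO (3.48) or at 0.5 µM (3.77). Sned1, a matrix protein, rose by 2.22.

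Other genes with large rises encode receptors, transporters and enzymes. Sstr2, a somatostatin receptor, rose from 4.05, 6.30 and 11.5 CPM to 37.9, 33.4 and 61.6 CPM, having stood at 34.5, 40.9 and 44.0 CPM at passage 14. Slc16a12, of the monocarboxylate transporter family, rose by 2.74 and the carbonyl reductase Cbr2 by 3.74. Stox2 rose by 3.87, AU021092 by 2.79, Reep2, a shaper of endoplasmic reticulum, by 2.56 and Spint2, an inhibitor of serine proteases, by 2.18. Gsn, the actin-severing protein gelsolin, was among the 5 rising genes of smallest p, with 61.1, 64.6 and 71.2 CPM at passage 12 and 246, 275 and 276 CPM at passage 18 (2.02 ± 0.07).

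**Figure D1:**
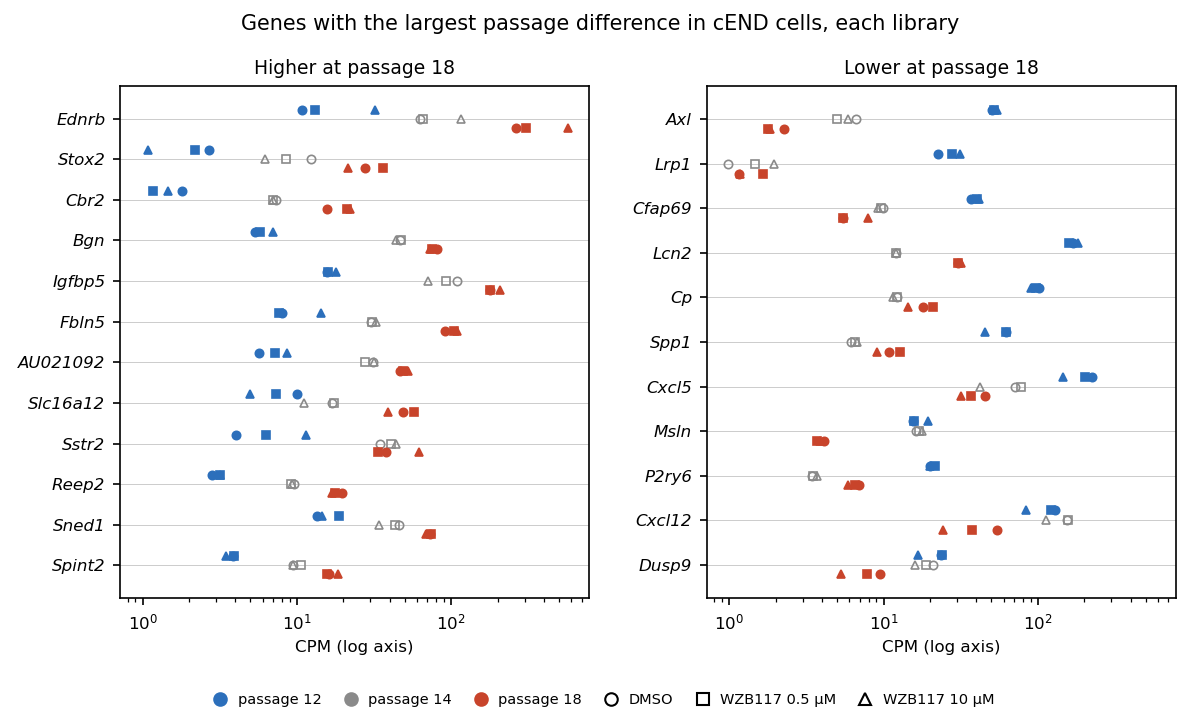
Level of each of the 12 genes with the largest rise (left) and 11 of the 12 with the largest fall (right) in every cEND library, in CPM on a log axis, with passage in colour and treatment by symbol. The 3 libraries of passage 18 do not overlap the 3 of passage 12 for any gene shown, since that was part of the rule that chose them, while passage 14 lies between them for some genes and outside them for others, such as Lcn2 and Cxcl12.

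By the same rule the largest fall was that of Axl, a receptor tyrosine kinase for the ligand Gas6, on the minus strand of chromosome 7 (GRCm38, chr7:25757273-25788705). Axl stood at 50.7, 52.1 and 54.4 CPM at passage 12, at 6.66, 5.00 and 5.87 CPM at passage 14 and at 2.26, 1.77 and 1.83 CPM at passage 18. The level thus fell at each step in all 3 treatments. The log2 fold change from passage 12 to passage 18 was -4.73 ± 0.11 (SE, adjusted p = 5.1e-40, edgeR), or 26.6-fold.

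Lrp1, a large endocytic receptor that carries lipoproteins and other cargo, fell from 22.6, 27.8 and 31.5 CPM to 1.16, 1.66 and 1.18 CPM. It was already at 0.982, 1.46 and 1.95 CPM at passage 14, so that the fall lay between passages 12 and 14. The log2 fold change was -4.35 ± 0.13 (SE, adjusted p = 4.3e-34, edgeR). Cfap69, a gene of cilia and flagella, fell from 37.1 to 41.5 CPM in the passage 12 libraries to 5.47 to 7.95 CPM at passage 18.

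Several of the largest falls were deepest at passage 14. Lcn2, the iron-siderophore binder lipocalin 2, stood at 169, 159 and 184 CPM at passage 12, at 12.1, 12.1 and 12.0 CPM at passage 14 and at 30.4, 30.2 and 31.6 CPM at passage 18 (-2.46 ± 0.07, passage 18 against 12). Cp, the copper-carrying ferroxidase ceruloplasmin, Spp1, the secreted phosphoprotein osteopontin, and P2ry6, a receptor for UDP, had the same order, with their lowest levels at passage 14. Cp fell by 2.44, Spp1 by 2.38 and P2ry6 by 1.66 from passage 12 to passage 18. Msln, Cxcl12 and Dusp9 had another order: their passage 14 levels were closer to those of passage 12 than to those of passage 18. Msln, the surface glycoprotein mesothelin, stood at 15.4, 15.7 and 19.4 CPM at passage 12, at 16.3, 17.1 and 17.9 CPM at passage 14 and at 4.09, 3.69 and 3.87 CPM at passage 18.

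Cxcl12, a chemokine that endothelial cells secrete, fell from 129, 122 and 83.7 CPM to 54.8, 37.4 and 24.3 CPM (-1.56 ± 0.09), with 155, 156 and 113 CPM at passage 14. Dusp9, a phosphatase of MAP kinases, fell by 1.51.

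The gene lists described below were chosen with earlier results of these data known, and no test was run on a list as a whole. Each list is read against the 16.2 percent of all tested genes called higher and the 18.8 percent called lower. The median log2 fold change of all tested genes was 0.002.

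Endothelial identity genes were higher at passage 18. Of 25 tested pan-endothelial genes (26 listed), 21 rose and 1, the transcription factor gene Sox7, fell. The median of their log2 fold changes was 0.38, and against a fold change of 1.5, 5 of the 25 were called higher. The median difference was 0.05 from passage 12 to passage 14 and 0.34 from passage 14 to passage 18. The medians within the treatments were 0.46 in DMSO, 0.43 at 0.5 µM and 0.36 at 10 µM. Emcn, the sialoglycoprotein endomucin, stood at 374, 348 and 337 CPM at passage 12 and at 717, 789 and 684 CPM at passage 18 (1.05 ± 0.07, adjusted p = 5.3e-19, edgeR). Mcam, the adhesion molecule CD146, rose from 646, 664 and 596 CPM to 1262, 1364 and 1220 CPM (1.02 ± 0.07). Clec14a, an endothelial surface lectin-like protein, rose by 0.84 and Ptprb, the endothelial receptor phosphatase VE-PTP, by 0.77. The groups did not overlap for any of these 4 genes, as was the case for 78.2 percent of all called genes.

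The best known markers moved less. Pecam1, the junction molecule CD31, rose by 0.45 ± 0.07, Cdh5, the cadherin of endothelial junctions, by 0.28 ± 0.07 and Kdr, the main receptor for VEGF, by 0.17 ± 0.07. The change in Kdr was near the threshold (adjusted p = 0.049, edgeR), and its passage 12 libraries, at 505 to 660 CPM, overlapped those of passage 18, at 578 to 767 CPM. The call of Cdh5 was lost in edgeR without the 0.5 µM library of passage 12 (adjusted p = 0.074) or of passage 18 (adjusted p = 0.066). Fli1, Vwf and Nos3 did not pass the threshold, with log2 fold changes of 0.04, 0.06 and 0.07.

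Several growth factor receptors of vessels were higher too. In the list of VEGF, angiopoietin and apelin genes, 8 of 19 tested genes (21 listed) rose and 5 fell, and 5 rose without the DMSO library of passage 12. Tie1, the orphan receptor that partners Tek, rose from 481, 511 and 551 CPM to 793, 820 and 842 CPM (0.68 ± 0.07). Tek, the angiopoietin receptor, rose by 0.58 and Calcrl, the receptor subunit for adrenomedullin, by 0.82. Esm1, a proteoglycan secreted by sprouting endothelial tip cells, fell from 11.7, 9.43 and 16.8 CPM to 2.49, 1.40 and 1.91 CPM (-2.69 ± 0.17), and had been at 13.9, 13.6 and 16.7 CPM at passage 14.

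In each list of markers of other cell types, most members were under 1 CPM in all 9 libraries. The sums of the lists moved in different directions. The summed level of 10 fibroblast markers was 81.7 to 105 CPM at passage 12, 34.5 to 37.9 CPM at passage 14 and 35.1 to 38.0 CPM at passage 18. Most of that sum was Pdgfra, a receptor for platelet-derived growth factor, which fell from 76.0, 79.3 and 99.2 CPM to 31.4, 32.5 and 34.8 CPM (-1.35 ± 0.07). Of the fibroblast markers, 6 were under 1 CPM in all 9 libraries, Col1a2, Col3a1 and Lum among them, and Dpep1 was at 0. The 13 pericyte and smooth muscle markers summed to 6.10 to 7.39 CPM at passage 12 and 5.05 to 5.86 CPM at passage 18, with 8 of them under 1 CPM throughout and Higd1b and Vtn at 0.

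Among 9 neuronal markers, 7 were under 1 CPM throughout, and the sum was almost all Nefl, the neurofilament light chain, which rose from 291, 282 and 322 CPM to 480, 568 and 566 CPM (0.85 ± 0.07). Microglial markers summed to 16.4 to 21.6 CPM at passage 12 and 14.4 to 16.7 CPM at passage 18, with C1qa, P2ry12 and Tyrobp at 0. Astrocyte markers summed to 164 to 179 CPM and 156 to 170 CPM, nearly all from the gap junction gene Gja1, which endothelial cells also express. Oligodendrocyte markers summed to at most 20.3 CPM in any library, with Mog, Olig1, Olig2 and Sox10 at 0, and epithelial markers to at most 0.56 CPM. In bulk samples, fewer cells of a type and less RNA per cell cannot be told apart. Whether the fibroblast markers had a part in the results below was not tested.

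Blood-brain barrier genes did not share a direction. Of 23 tested genes (31 listed), 5 rose and 8 fell, and the median was -0.03. Of the 8, 4 lie on chromosomes 5 and 13, where more genes fell than elsewhere: Cldn12 and both Abcb1 genes on chromosome 5 and Foxf2 on chromosome 13. Among the 17 tested members on other chromosomes, 5 rose and 4 fell. Among the junction genes, Jam2, a junctional adhesion molecule, rose from 22.3, 20.1 and 25.1 CPM to 51.7, 59.8 and 69.0 CPM (1.42 ± 0.08, adjusted p = 5.7e-22, edgeR). Cldn5, the main claudin of brain endothelium, stood at 159, 174 and 191 CPM at passage 12 and at 222, 223 and 273 CPM at passage 18 (0.46 ± 0.07), with 101, 102 and 103 CPM at passage 14. Passage 14 was thus below both for Cldn5. Jam2 and Cldn5 lie on chromosome 16, where 30.5 percent of all tested genes rose and 8.2 percent fell. Insr, the insulin receptor, rose by 0.52 ± 0.07.

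The carriers and pumps of the list that changed were lower at passage 18. Abcb1b, one of the genes of the drug efflux pump P-glycoprotein, fell from 111, 99.6 and 90.1 CPM to 52.95, 54.9 and 42.5 CPM (-0.9985 ± 0.07). Its neighbour Abcb1a, named after its value was seen, fell by 1.05. The barrier transcription factor gene Foxf2 fell from 5.99, 7.60 and 9.31 CPM to 1.67, 1.80 and 2.02 CPM (-2.04 ± 0.19). Lrp1, above, belongs to this list too. Slc2a1, which encodes Glut1, the target of WZB117, did not pass the threshold (-0.04 ± 0.15, adjusted p = 0.88, edgeR). It stood at 70.8, 72.1 and 368 CPM at passage 12 and at 83.7, 77.6 and 267 CPM at passage 18, so that the 10 µM library was the highest at both passages but less so at passage 18.

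Several Notch receptors and ligands were higher. Notch signalling passes between neighbouring cells when a ligand of the Delta or Jagged family binds a Notch receptor, whose cleaved inner part then acts with Rbpj on target genes. Of 21 tested genes (23 listed), 9 rose and 1 fell. The ligand gene Dll1 rose from 83.7, 90.7 and 91.6 CPM to 137, 146 and 172 CPM (0.77 ± 0.07), and Dll4, the main Delta ligand of arterial endothelium, from 17.9, 18.7 and 21.6 CPM to 27.6, 33.0 and 29.8 CPM (0.64 ± 0.09). The groups did not overlap for either ligand, as was the case for 78.2 percent of all called genes. Dll4 was at 7.37 to 10.0 CPM at passage 14, under both other passages. Without the DMSO library of passage 12, or that of passage 18, 5 Notch genes were called higher, and without the treatment term also 5.

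Among the receptors, Notch4 rose by 0.48 ± 0.07 and Notch1 by 0.26 ± 0.07. The call of Notch1 was lost in edgeR without the DMSO library of passage 12 (adjusted p = 0.169) or of passage 18 (adjusted p = 0.138). It was also lost without the treatment term and with passage as a trend. The DNA-binding partner Rbpj fell from 62.0, 59.9 and 74.4 CPM to 42.0, 43.4 and 42.1 CPM (-0.61 ± 0.07). Rbpj lies on chromosome 5, and among the 19 tested list members outside chromosomes 5 and 13, 9 rose and 0 fell. Those chromosomes had the largest shares of lower genes, so leaving them out mainly takes away falls. Dll1 and Notch4 lie on chromosome 17, where 25.6 percent of all tested genes rose and 8.3 percent fell. The 8 tested target genes were divided. Nrarp, a feedback inhibitor of the pathway, rose by 0.46 ± 0.08 and the repressor Hes1 by 0.38 ± 0.07, while Myc fell by 0.40 and Hey1 by 1.88. Hey1 was near the lower end of detection, at 0.681 to 1.09 CPM at passage 12 and 0.161 to 0.411 CPM at passage 18. Without the 0.5 µM library of passage 12, edgeR called 0 of the 8 target genes lower, with 2 at an unadjusted p under 0.05.

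Most genes of endothelial activation fell. In inflammation, cytokines act through the NF-kB transcription factors on adhesion molecules, chemokines and acute phase proteins. Of 25 tested genes of this kind (27 listed), 18 fell and 3 rose, with a median of -0.79. The passage 14 libraries stood lower still: the median difference was -1.04 from passage 12 to passage 14 and 0.26 from passage 14 to passage 18. With passage number as a trend over all 9 libraries, 3 of the 25 genes passed the threshold, all of them lower. The sequences just before the transcription start of 4 members of this list are shown because they hold a pattern of NF-kB sites. Capitals mark the letters GGGNNNNTCC or their reverse complement, and an unbroken capital run longer than 10 letters holds overlapping matches on both strands. The sequences are from RefSeq, build GRCm38.p6, on the strand of the gene: Cxcl1 at chr5:90891145-90891214 (plus), Cxcl2 at chr5:90903791-90903860 (plus), Lcn2 at chr2:32387802-32387871 (minus) and Cxcl10 at chr5:92348954-92349023 (minus).
Cxcl1: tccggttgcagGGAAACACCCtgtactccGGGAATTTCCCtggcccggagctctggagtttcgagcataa
Cxcl2: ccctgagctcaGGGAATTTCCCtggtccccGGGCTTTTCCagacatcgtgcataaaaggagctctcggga
Lcn2: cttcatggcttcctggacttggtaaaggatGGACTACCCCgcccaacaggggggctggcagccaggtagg
Cxcl10: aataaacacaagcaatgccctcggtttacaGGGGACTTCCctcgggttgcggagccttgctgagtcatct

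From 250 bases before to 50 after the start, the pattern was found in 7 of the 13 fallen activation genes with a promoter in the table (53.8 percent). Of all 27025 genes with a promoter, 21.3 percent held it in the same span. It was also in 12 of the 19 tested list members with a promoter, so it did not set the fallen genes apart from the rest of the list. A match of letters is a description of the sequence only.

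Chemokine genes had some of the lower values. Cxcl1, a chemokine for neutrophils, stood at 363, 296 and 364 CPM at passage 12 and at 111, 108 and 143 CPM at passage 18 (-1.50 ± 0.07, adjusted p = 1.9e-22, edgeR). Cxcl5, a neighbouring gene of the same family that the list does not hold, stood at 223, 203 and 145 CPM at passage 12 and at 45.4, 37.1 and 31.6 CPM at passage 18 (-2.31 ± 0.07). For Cxcl1 no passage 18 library reached the lowest passage 12 library, and for Cxcl5 this was part of the rule that chose it. Of all called genes, 78.2 percent had no overlap of the passages. Cxcl2, named after its value was seen, fell by 1.09 and lies on chromosome 5 beside both.

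C3, the central complement protein, stood at 97.1, 89.6 and 93.9 CPM at passage 12, at 8.13, 8.64 and 7.47 CPM at passage 14 and at 33.5, 36.7 and 31.2 CPM at passage 18 (-1.47 ± 0.07). Csf3, the granulocyte colony-stimulating factor, fell from 8.57, 8.23 and 12.1 CPM to 1.05, 0.756 and 1.24 CPM (-3.23 ± 0.20). Of the leukocyte adhesion molecules, named after their values were seen, Sele fell by 0.79, Selp by 0.99 and Vcam1 by 0.39, and Icam1 rose by 0.69. Csf1 and Nfkb2 were the others that rose. The NF-kB inhibitor gene Nfkbia did not pass the threshold (-0.03 ± 0.07).

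**Figure D2:**
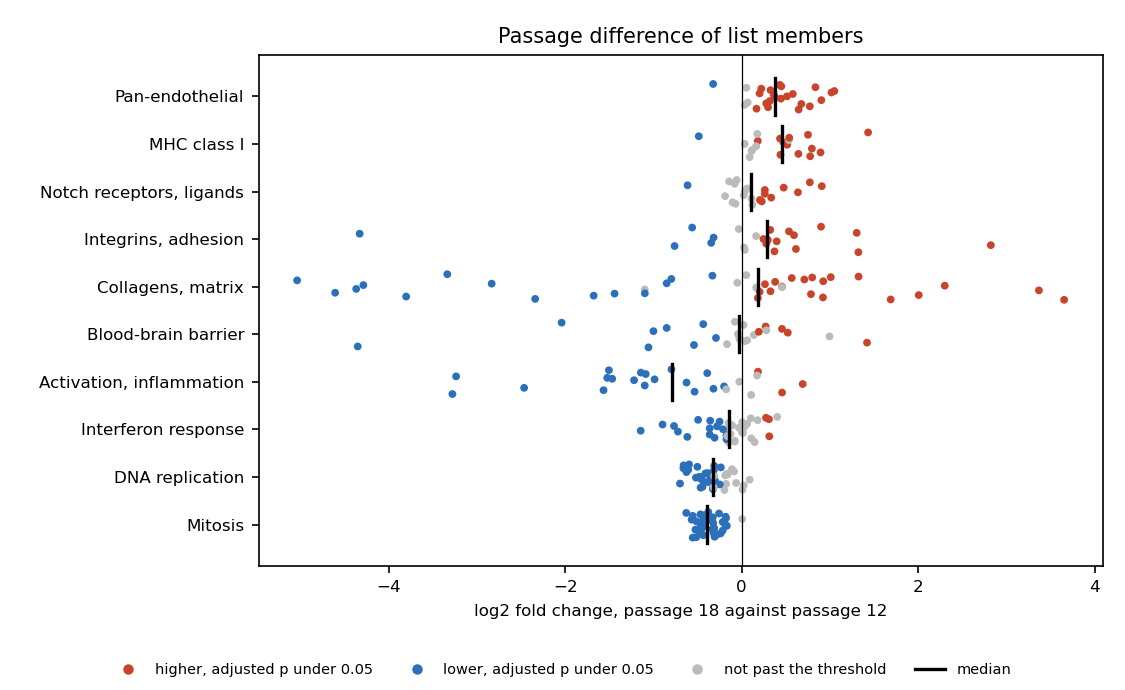
Log2 fold change of passage 18 against passage 12 for each tested member of 10 gene lists, each point a gene coloured by its call and each vertical bar the list's median. Mitosis and DNA replication genes lie close together on the lower side, while matrix genes spread from -5.04 (Fbln2) to 3.66 (Bgn).

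Interferon-response genes, many of which detect or degrade viral RNA, were lower in part. Of 38 tested genes, 15 fell and 3 rose, and the median was -0.15. Of the 38, 6 lie on chromosome 5, and among the 32 outside chromosomes 5 and 13, 10 fell and 3 rose, with a median of -0.12. The level at passage 14 was far below that of passages 12 and 18: the median difference was -0.99 from passage 12 to passage 14 and 0.80 from passage 14 to passage 18. With passage number as a trend over the 9 libraries in edgeR, 0 of the 38 genes passed the threshold, and 3 had an unadjusted p under 0.05 (2 higher, 1 lower). The RNA sensor Oas1a stood at 127, 124 and 131 CPM at passage 12, at 56.9, 50.6 and 49.5 CPM at passage 14 and at 86.4, 88.3 and 73.9 CPM at passage 18 (-0.61 ± 0.07). Oasl1, of the same family, fell by 0.90, Usp18, which removes the ubiquitin-like ISG15 from proteins, by 0.77 and Ifit2 by 0.72. Without the DMSO library of passage 12 or of passage 18, 9 genes of the list fell, and without the treatment term 7 fell.

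MHC class I genes, which present peptides to T cells and are also raised by interferons, were mostly higher at passage 18 than at passage 12. Of 20 tested genes, 12 rose and 1, the activator gene Nlrc5, fell, with a median of 0.46. As with the interferon-response genes, passage 14 stood lowest: the median difference was -0.29 from passage 12 to passage 14 and 0.70 from passage 14 to passage 18. H2-D1 stood at 282, 286 and 343 CPM at passage 12 and at 487, 503 and 534 CPM at passage 18 (0.75 ± 0.07, adjusted p = 6.7e-14, edgeR). H2-T23 rose by 0.90 ± 0.07, H2-Q6 by 0.80 ± 0.09 and the immunoproteasome subunit Psmb8 by 0.78 ± 0.08. B2m, the shared light chain, and the peptide transporter gene Tap1 did not pass the threshold, with 0.09 and 0.04. Genes of the H2 family are near-identical copies, and how reads were divided between them was not stated, so single H2 values are uncertain. Most lie on chromosome 17, where 25.6 percent of all tested genes were called higher.

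Genes of cell division fell, none of them by as much as 2-fold. Of 36 tested mitosis genes, 35 fell, with a median of -0.39, and the other, Bub3, was at 0.01. Of 40 tested DNA replication genes, 26 fell and the other 14 did not pass the threshold, with a median of -0.32. Of the 40, 8 lie on chromosome 5 and 1 on chromosome 13, and among the other 31, 19 fell, with a median of -0.31. The replication list had medians of -0.213 in DMSO, -0.267 at 0.5 µM and -0.608 at 10 µM, and the mitosis list -0.305, -0.374 and -0.376. The mitosis genes were not lower at passage 14: the median difference was 0.11 from passage 12 to passage 14 and -0.54 from passage 14 to passage 18. The 10 µM library was the lowest of its passage in the mitosis list at all 3 passages. Without the treatment term, 3 mitosis genes and 14 replication genes fell.

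**Figure D3:**
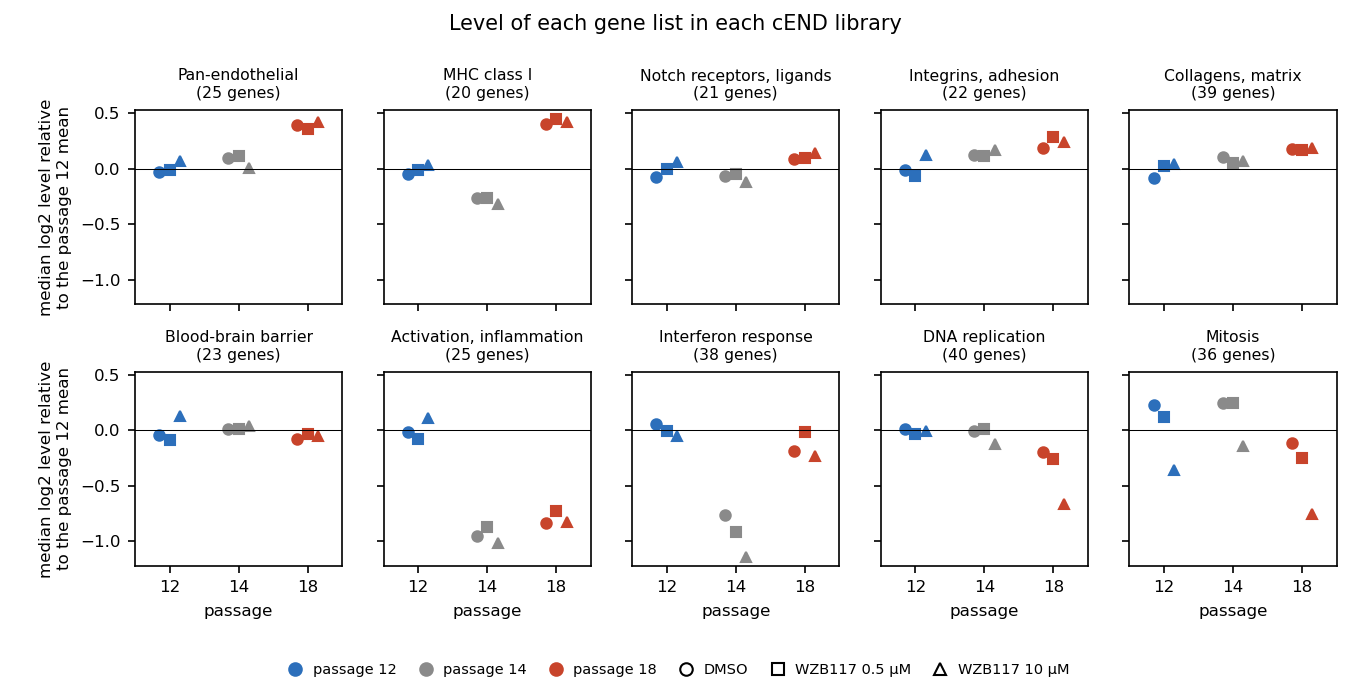
Level of 10 gene lists in each cEND library, as the median over list members of the log2 level (CPM plus 0.5) relative to each gene's mean at passage 12, by passage and treatment. Activation genes stand near -0.84, -0.73 and -0.82 at passage 18, interferon-response genes are lowest at passage 14, and in the mitosis list the 10 µM library is the lowest at every passage.

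Ccnb1, the cyclin that drives entry into mitosis, stood at 116, 102 and 66.6 CPM at passage 12 and at 72.3, 65.3 and 45.1 CPM at passage 18 (-0.63 ± 0.07, adjusted p = 7.8e-11, edgeR). Its groups overlapped across treatments, while each passage 18 library was below the passage 12 library of its own treatment. Anln, a scaffold of the division ring, fell by 0.55, the centrosome kinase gene Nek2 by 0.57 and the kinetochore gene Nuf2 by 0.52. Rrm2, the subunit of ribonucleotide reductase that limits the supply of DNA precursors, stood at 229, 207 and 208 CPM at passage 12 and at 150, 137 and 111 CPM at passage 18 (-0.70 ± 0.07). The polymerase genes Pole and Pola1 fell by 0.66 and 0.59 and the clamp loader gene Rfc5 by 0.60.

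Mki67, the proliferation marker Ki-67, stood at 388, 361 and 279 CPM at passage 12, at 528, 488 and 375 CPM at passage 14 and at 334, 321 and 255 CPM at passage 18 (-0.17 ± 0.07, adjusted p = 0.044, edgeR). The passages overlapped for this gene. The start regions of 4 mitosis genes are shown because they hold the letters of the cell cycle homology region, an element through which a repressor complex silences mitotic genes outside division. Capitals mark TTTGAA or its reverse complement. The sequences are from RefSeq, build GRCm38.p6, on the strand of the gene: Mki67 at chr7:135716442-135716507 (minus), Cdk1 at chr10:69352913-69352957 (minus), Top2a at chr11:99024190-99024242 (minus) and Ube2c at chr2:164769870-164769928 (plus).
Mki67: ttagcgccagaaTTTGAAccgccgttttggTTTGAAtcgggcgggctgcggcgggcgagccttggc
Cdk1: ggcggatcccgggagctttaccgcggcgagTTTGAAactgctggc
Top2a: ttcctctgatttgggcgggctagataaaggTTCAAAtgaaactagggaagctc
Ube2c: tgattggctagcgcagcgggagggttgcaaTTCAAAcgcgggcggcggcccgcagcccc

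From 250 bases before to 50 after the start, these letters were found in 20 of the 29 fallen mitosis genes with a promoter in the table (69.0 percent). Of all 27025 genes with a promoter, 20.2 percent held them in the same span. Since 35 of the 36 tested mitosis genes fell, the pattern describes the list and not the fall.

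Of 7 tested inhibitors of cyclin-dependent kinases, which hold back the cell cycle, 1 passed the threshold: Cdkn2d fell by 0.55. Cdkn2a, the locus of p16 and p19Arf, stood at 35.8, 40.6 and 37.5 CPM at passage 12 and at 39.0, 39.8 and 36.9 CPM at passage 18 (0.03 ± 0.08, adjusted p = 0.82, edgeR). Cdkn1a, the p21 gene, stood at 10.4, 11.3 and 55.3 CPM and at 13.7, 16.9 and 43.9 CPM in the same order (0.17 ± 0.21, adjusted p = 0.63, edgeR). Without the 10 µM libraries its log2 fold change was 0.49 and passed the threshold (adjusted p = 0.00096, edgeR). Of 28 tested p53 targets, 7 rose (25.0 percent) and 8 fell (28.6 percent). Of the p53 targets 4 fell without the DMSO or the 10 µM library of passage 12 or the DMSO library of passage 18, and 5 without the 10 µM library of passage 18. Of 24 tested genes of the senescence-associated secretory list (29 listed), 7 rose and 13 fell, Igfbp5 being among the former and Cxcl1 among the latter. Of the 24, 7 lie on chromosome 5, and without chromosomes 5 and 13 the list had 6 higher and 7 lower of 17 genes, its median moving from -0.348 to -0.016. Igfbp3, another binding protein of insulin-like growth factors, fell from 12.0, 13.2 and 21.9 CPM to 2.29, 2.21 and 3.79 CPM.

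The matrix list was split. Of 39 tested genes of collagens and other matrix proteins (47 listed), 19 rose and 14 fell, 7 and 11 of them by at least 2-fold. Besides Bgn and Fbln5, the risers included Eln, the elastin gene, from 28.0, 32.1 and 28.6 CPM to 71.5, 80.4 and 69.6 CPM (1.33 ± 0.07), and Col5a3, from 3.38 to 4.24 CPM at passage 12 by 2.01. The main basement membrane genes, named after their values were seen, rose from high levels: Col4a1 stood at 2667 to 3093 CPM at passage 12, 3914 to 4069 CPM at passage 14 and 5345 to 5582 CPM at passage 18 (0.92 ± 0.08), and Col4a2 and the perlecan gene Hspg2 rose by 0.93 and 0.79.

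Many of the fallers were at low levels from the start. Col15a1, a collagen beneath endothelium, stood at 32.8, 33.8 and 23.9 CPM at passage 12, at 4.57, 4.42 and 1.86 CPM at passage 14 and at 12.5, 12.5 and 8.38 CPM at passage 18 (-1.44 ± 0.09). The interstitial matrix genes Fbln2, Col5a2, Fbn1 and Dcn, of which only Dcn was named by rule, were between 0.776 and 4.86 CPM at passage 12 and between 0 and 0.296 CPM at passage 18. Dcn, decorin, is also one of the fibroblast markers whose summed level fell. The adhesion receptor gene Cdh2, N-cadherin, fell from 9.62, 10.5 and 12.8 CPM to 0.694, 0.698 and 0.242 CPM (-4.33 ± 0.27).

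Of 22 tested genes of integrins and of other adhesion molecules (26 listed), 13 rose and 5 fell. Itgb4, the laminin-binding integrin β4, stood at 113, 127 and 258 CPM at passage 12 and at 320, 295 and 585 CPM at passage 18 (1.31 ± 0.07), and was highest in the 10 µM library at both. Alcam, an adhesion molecule for activated leukocytes, rose by 1.32 and Itga8 by 2.82, from 0.807 to 1.20 CPM to 6.43 to 7.31 CPM. Cd44, the hyaluronan receptor, fell by 0.76.

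Guidance genes changed in both directions, with 11 of 25 tested (29 listed) rising and 9 falling. With passage as a trend over the 9 libraries, 4 rose and 1 fell. Sema3a, a secreted repellent for axons and vessels, rose from 250, 249 and 300 CPM to 497, 559 and 577 CPM (1.04 ± 0.07) and Ntn1, netrin 1, by 1.15. Sema3e and Sema3c, of the same family, fell by 1.24 and 0.97. Sema3a, Sema3c and Sema3e all lie on chromosome 5.

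Of 29 tested growth factor genes (34 listed), 6 rose and 13 fell. Fgfr1, a receptor for fibroblast growth factors, rose by 0.78, and Igf2 rose from 0.404 to 0.705 CPM to 2.62 to 4.08 CPM. Igf1r, the receptor for both insulin-like growth factors, fell from 4.12, 3.93 and 7.60 CPM to 0.976, 0.901 and 1.93 CPM (-2.04 ± 0.23).

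Of 22 tested glycolysis genes (24 listed), 4 rose and 5 fell. The count of higher genes was 1 without the DMSO or the 0.5 µM library of either passage and 7 without the 10 µM library of either. Hk2, the inducible hexokinase, stood at 54.2, 59.99 and 145 CPM at passage 12, at 37.2, 38.4 and 94.0 CPM at passage 14 and at 22.7, 23.2 and 51.6 CPM at passage 18 (-1.37 ± 0.07, adjusted p = 9.7e-23, edgeR). It fell at each step in every treatment, and the 10 µM library was the highest at each passage. Of 17 tested clock genes (19 listed), 9 fell and 1 rose, and with passage as a trend 4 fell. Dbp, an output gene of the clock, fell by 0.87, the repressor gene Per2 by 1.03 and Nr1d2 by 0.56. The hour of harvest was not given in the sources used here, and whether it differed was not tested.

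The calls were not evenly spread over the chromosomes. On chromosome 5, 421 of 1199 tested genes (35.1 percent) fell and 74 (6.2 percent) rose, with a median of -0.16. On chromosome 13, 186 of 568 (32.7 percent) fell and 31 (5.5 percent) rose, with a median of -0.20. The medians within the treatments were -0.19, -0.24 and -0.16 on chromosome 5 and -0.21, -0.16 and -0.20 on chromosome 13, in the order DMSO, 0.5 µM and 10 µM. Without the 50 tested histone genes on chromosome 13 its median was -0.17. On chromosome 19, 31.3 percent of genes rose and 9.3 percent fell, and on chromosome 16, 30.5 and 8.2 percent. DNA copy number was not measured.

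**Figure D4:**
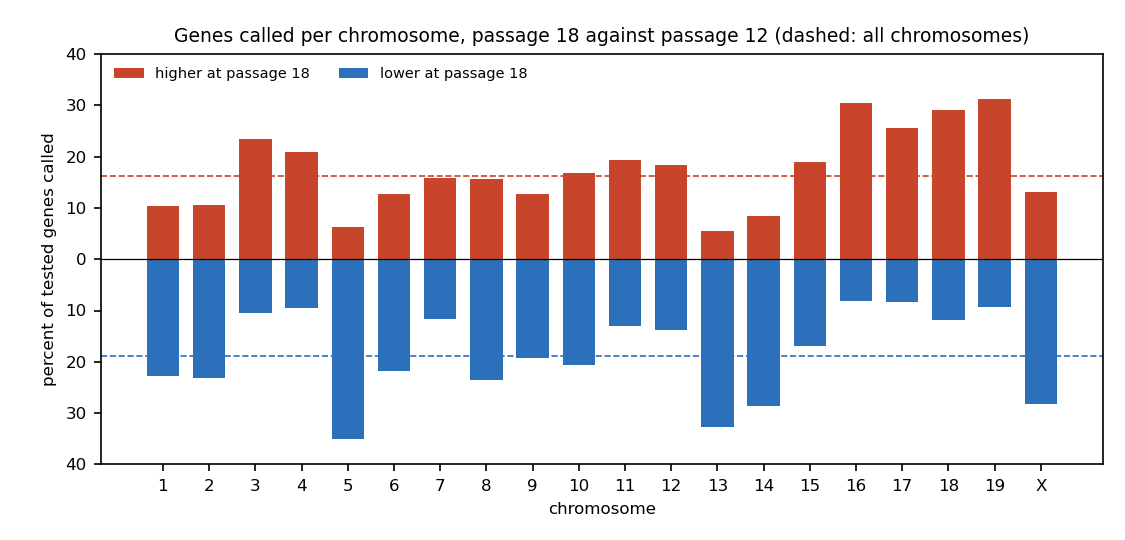
Percent of tested genes called higher (upwards) or lower (downwards) at passage 18 on each chromosome, with dashed lines at the 16.2 and 18.8 percent of all tested genes. Chromosomes 5 and 13 have the largest shares of lower genes, 35.1 and 32.7 percent, and chromosomes 19 and 16 the largest shares of higher genes, 31.3 and 30.5 percent.

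The difference of chromosome 13 lay between passages 14 and 18, with a median of 0.05 from passage 12 to 14 and -0.23 from passage 14 to 18. That of chromosome 5 was divided between both steps, at -0.07 and -0.10. Chromosome 5 holds several genes named above, Cxcl1, Cxcl5, Spp1, Cfap69 and Pdgfra among them. Without the genes of chromosomes 5 and 13, 2345 of 13385 genes rose and 2236 fell. The activation list then had 14 lower and 3 higher of 21 genes, with a median of -0.53, and the mitosis list still had 33 lower genes.

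Among 231 windows of 10 Mb with at least 20 tested genes, the highest median was 0.40 in the first window of chromosome 10, where 21 of 30 genes rose and 1 fell. Its medians within the treatments were 0.36, 0.44 and 0.37. A window of chromosome 8 (40000001 to 50000000) followed at 0.32, with 19 of 39 genes higher and 1 lower. The window of chromosome 5 from 90000001 to 100000000, which holds the Cxcl genes, had a median of -0.34, with 26 of 52 genes lower and 5 higher. The lowest was a window of chromosome 13 that holds 49 tested histone genes, at -0.37, with medians within the treatments of -0.33, -0.70 and -0.01.

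The passage difference was set beside that of the drug in the same fit. WZB117 at 10 µM against DMSO changed 2420 of 15152 genes (16.0 percent), 197 of them by at least 2-fold. These 2 contrasts share libraries, so each has its own values given side by side. Ednrb was 4.42 for passage and 1.34 for 10 µM WZB117, both past the threshold. Hk2 was -1.37 for passage and 1.32 for the drug, and Cxcl12 was -1.56 and -0.88. Axl was -4.73 for passage and 0.01 for the drug (adjusted p = 0.98, edgeR), and Slc2a1 was -0.04 for passage and 2.05 for the drug (adjusted p = 0.0050, edgeR).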

How the data were processed

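RNA of cEND cells was sequenced, and the authors deposited estimated counts per Ensembl gene, not scaled to a common total (19.8 percent of the values were not whole). The submitters' processing notes name build GRCm38. The aligner, counting program and strand setting are not given in the sources used here, so reads of overlapping, antisense or near-identical genes (H2, Oas1, replication histones) may have been divided in unknown ways. The table listed 44674 genes, and symbols and positions were taken from the GENCODE annotation by identifier.

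Estimated counts were rounded, filtered with filterByExpr and scaled with TMM factors. The 6 libraries of passages 12 and 18 were fitted with edgeR 4.0.16 (robust quasi-likelihood, 2-sided F test, R 4.3.3) with treatment and passage as terms, which leaves 2 residual degrees of freedom per gene before moderation across genes. Adjustment was Benjamini-Hochberg over all tested genes. SE is the log2 fold change divided by the square root of F. It therefore rests on the moderated variance and is not the spread of a gene's own passage differences. CPM used factors over the 9 cEND libraries. The steps were tested on simulated data.

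The replicate number in the labels stands for the treatment, so the block is part of the design. Deviations of same-numbered libraries of passages 12 and 18 from their passage means correlated at 0.10, 0.07 and 0.23 across genes. No libraries of a passage agreed within sampling noise (lowest chi-square per degree of freedom 8.45).

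The comparison and the 51 gene lists were chosen with earlier results of these data known. Genes were named by rule: per direction the 12 largest changes and the 5 smallest p-values (adjusted p under 0.05, mean of at least 10 CPM, no overlap of the libraries), up to 4 members of smallest p per list and a set of genes named in every case. A few genes that the rule or the lists hold are not reported here by name, but stay in all counts and medians. Genes named outside the rule are marked as such, or stand in a sentence that accounts for a list's exceptions, its members at 0 or under 1 CPM, or a printed sequence. Promoters span 250 bases before to 50 after the start, and motifs were searched on both strands. The shares of genes with a motif cover this whole span, while the printed stretches show matches in the 250 bases before the start only.

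Alternatives were other scaling factors, no filter, no block, all 9 libraries, passage as a trend, a fold threshold, DESeq2 1.42.0 and each library left out. Some were added after seeing the data: leaving out the 10 µM libraries, leaving out chromosomes 5 and 13, and a term for a different passage difference at 10 µM.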

Additional observations from a re-analysis of the deposited data

Results flagged for a closer look

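For 3 of the named genes, a term for a separate passage difference at 10 µM WZB117 passed the threshold in edgeR over the 6 libraries (119 genes in all). Each passage has 1 library at 10 µM, so the term sets a single pair of libraries against the spread of the DMSO and 0.5 µM pairs. It describes these libraries and does not show a difference between doses. For Slc2a1 the term was -0.603 on the log2 scale (adjusted p = 0.0047, edgeR): passage 18 minus 12 was 0.24 in DMSO, 0.11 at 0.5 µM and -0.46 at 10 µM. For Cdkn1a it was -0.783 (adjusted p = 0.014), from 0.39, 0.57 and -0.33. For Fbln5 it was -0.678 (adjusted p = 0.026), from 3.48, 3.77 and 2.92, so that its rise was smaller in the 10 µM pair but in the same direction.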

How the results depend on the processing

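The count of 5293 genes (2450 higher, 2843 lower) was within 1.5 times of itself with other scaling factors, no filter, all 9 libraries, without structural RNA, without the 10 µM libraries, without chromosomes 5 and 13, and with DESeq2 (3994). Without the replicate block, that is without treatment in the model, it was 2464 (1188 higher, 1276 lower). Against a fold change of 1.5 it was 658 (314 and 344), and with passage number as a trend over 9 libraries 2611 (1214 and 1397). Leaving out each library gave 3562 to 4585 genes, 1577 to 2298 higher and 1963 to 2379 lower, and the lowest total and the lowest count of higher genes came without the DMSO library of passage 18. The count for 10 µM WZB117 was 162 against a 1.5-fold change, 625 in the trend model and 1071 to 2293 when a library was left out, the lowest, 1089 and 1071, without the DMSO library of passage 12 or 18. The median of chromosome 5 was -0.24 over genes of at least 10 CPM.

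Genes past no threshold in the main comparison changed sign in some settings. Cdkn1a was -0.044 without the replicate block and -0.0137 to 0.488 when a library was left out. Slc2a1 was 0.18 without the 10 µM libraries and -0.18 to 0.18 when a library was left out. Tubb3 was 0.51 without the 10 µM libraries, 0.0147 with DESeq2 and -0.32 to 0.51 when a library was left out. With a library left out, Cdkn2a ranged from -0.0166 to 0.0621, Fap from -0.68 to 0.40, Kl from -0.24 to 0.27 and Ndrg2 from -0.24 to 0.22. The cause was not tested. Of the 213 named genes, 57 lost their call without the replicate block, 9 with DESeq2, 99 against a 1.5-fold change and 68 with passage as a trend. The 68 include Bgn, Sstr2, Lrp1, Lcn2, Cp, Spp1, P2ry6, Cxcl12, C3, Csf3, Col15a1, Cldn5, Pdgfra and Dll4. Without the replicate block, 8 integrin and adhesion genes, 5 genes of the VEGF, angiopoietin and apelin list and 1 glucocorticoid response gene rose, and with passage as a trend 7, 3 and 3. Of the p53 targets 1 rose and 1 fell without the block, 3 barrier genes rose and 6 clock genes fell. Of the glycolysis genes edgeR then called 0 higher (1 at an unadjusted p under 0.05) and 1 lower. With passage as a trend, 13 pan-endothelial, 12 matrix, 2 barrier and 3 p53 target genes rose, while 19 mitosis, 9 matrix, 7 growth factor, 6 senescence secretory, 5 barrier and 3 p53 target genes fell. With 3 libraries per passage, genes at about 1 CPM or below have wide errors.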

Other observations

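Some lists not described above had calls in the passage comparison. Of 41 tested nuclear genes of oxidative phosphorylation, 14 fell and 2 rose, with a median of -0.06. Uqcrfs1, the iron-sulphur subunit of respiratory complex III, fell by 0.51 ± 0.07 (SE) and Sdhd, of complex II, by 0.38. Between 6 and 13 genes of this list fell when a library was left out, the count being 6 without the DMSO or the 10 µM library of passage 12 or the 10 µM library of passage 18. Of 13 mitochondrially encoded genes, 4 rose, with 0.28 ± 0.07 for mt-Nd4, and the others did not pass the threshold. Only 1 was called without the DMSO library of passage 12, and 1 with all 9 libraries in the fit. Without the treatment term, or with passage as a trend, edgeR called 0 of them, and 1 had an unadjusted p under 0.05 in each. The 39 tested replication histone genes are near-identical copies: 8 fell, and 38 fell when the 10 µM libraries were left out.

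Of 10 tested glucocorticoid response genes (15 listed), 5 rose, among them Dusp1, a phosphatase of MAP kinases, by 0.76 ± 0.07 and Tsc22d3, a glucocorticoid-induced leucine zipper, by 0.55 ± 0.07. Fabp5, a fatty acid carrier protein chosen after its value was seen, stood at 119, 119 and 90.2 CPM at passage 12 and at 348, 426 and 315 CPM at passage 18, and Fabp4, on the same stretch of chromosome 3, rose by 1.67 on the log2 scale. Xist, the RNA of the inactive X chromosome, was at 0.353 to 0.666 CPM at passage 12 and 0.087 to 0.188 CPM at passage 18, near the lower end of detection.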
